A study of Mus musculus with 90 samples.

Results

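The 7 libraries described here come from tibialis anterior (TA) muscle of mice labelled Piezo1 KO, taken 1 day (4 libraries) and 3 days (3 libraries) after cardiotoxin (CTX), out of 90 libraries in the series. They were chosen by their labels: genotype, tissue and day. The KO mice carry Pdgfra-Cre with floxed Piezo1 (Pdgfra-Cre.Piezo1f/f), and the WT mice set beside them carry the same Pdgfra-Cre with intact Piezo1 (Pdgfra-Cre.Piezo1+/+), again 4 libraries at day 1 and 3 at day 3. Every one of these muscles received CTX, a cobra toxin injected to kill fibres, and so did every TA group analysed here, so no uninjured level is compared. The labels give neither the age of these mice nor a separate animal for each replicate, so the p-values rest on the spread among samples, whatever its source. The Cre acts in cells that express Pdgfra, the receptor that marks the stromal cells (fibro-adipogenic progenitors) of muscle, while the libraries hold RNA of the whole muscle.

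When muscle fibres die, neutrophils enter within hours, followed by monocytes that become macrophages and clear the debris. Satellite cells, the stem cells of muscle, then divide as myoblasts under Myf5 and Myod1, leave the cycle as Myog rises, and fuse with the help of Mymk and Mymx into new fibres that first carry embryonic myosins. Stromal cells lay down a temporary matrix and send growth factors to both. Piezo1 is a cation channel that opens when the membrane is stretched.

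Whole-number counts per gene symbol were compared with edgeR's quasi-likelihood test in 1 fit of all 20 TA libraries. A gene is called where the adjusted p is under 0.05 over the 15499 genes tested. Levels are in CPM (counts scaled to a common library size by edgeR's TMM factors), and changes are log2 of day 3 over day 1 ± SE. For a list, a percent of scaled counts is its summed CPM as a percent. It divides by the library total multiplied by the TMM factor, so it is not a share of the library's own counts. The factors were 0.936 to 1.08 in KO and 1.02 to 1.09 in WT at day 1, and 1.27 to 1.43 and 1.17 to 1.26 at day 3. Day 3 percents are therefore lower than such shares, most of all in KO. A change differs between genotypes where the interaction, the KO change minus the WT change, is called. Library totals ran from 6513479 to 6950626 counts in KO at day 1, and were 4051973, 10226407 and 7768898 in KO at day 3. Transcripts of the mitochondrial genome made up 5.88 to 6.54% of counts in KO at day 1 and 1.82 to 2.33% at day 3, and the 20 most abundant genes 21.8 to 28.2% and 11.2 to 12.5%. Both shares were lower in all 3 libraries of day 3 than in any of day 1, and their part in the results was not tested.

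Piezo1 itself (chromosome 8, 122481698 to 122551329, minus strand, mm10, from GENCODE) was measured at 46.6, 42.4, 30.9 and 43.1 CPM in the 4 KO libraries of day 1 and at 33.3, 19.4 and 34.5 CPM in the 3 of day 3. Replicate 3 of day 1 lay below 2 of the 3 libraries of day 3, and the change was small (log2 -0.50 ± 0.20, adjusted p = 0.044). That call was lost without KO day 1 replicate 1 (log2 -0.43), 2 (-0.46) or 4 (-0.46), and without KO day 3 replicate 2 (-0.26). It was also lost without the filter on low counts (-0.48), with the replicate block (-0.53) and with only the compared groups fitted (-0.48). In WT it measured 46.4 ± 6.05 CPM at day 1 (SD, n = 4) and 27.9 ± 5.84 CPM at day 3 (SD, n = 3), and the difference between the changes was not called (interaction log2 0.23 ± 0.28, adjusted p = 0.702). At day 7 it measured 20.7 ± 3.31 CPM in KO and 21.7 ± 0.825 CPM in WT (SD, n = 3 each). Counts per gene do not show the loss of floxed exons, and most cells of a muscle carry no Pdgfra-driven Cre, so these levels are no check of the deletion. Acta1 and Ckm, defining transcripts of skeletal muscle, were present in every library, which does not tell TA from other muscles.

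Between days 1 and 3, the KO muscle changed in 6907 of the 15499 genes tested (44.6%), 3407 higher (22.0%) and 3500 lower (22.6%). The median change over all genes was 0.004 on the log2 scale. In 21.5% of all genes tested every KO library of day 3 lay above every one of day 1. In 21.9% every one lay below. Against this background, genes of the contractile fibre, neutrophils, the immediate early response and endothelium were mostly lower at day 3, and most genes of macrophages, cell division, interferon response, myoblasts, embryonic muscle and collagen higher. In bulk tissue, fewer cells of a type and less RNA per cell cannot be told apart, which holds for every cell type below.

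**Figure D1:**
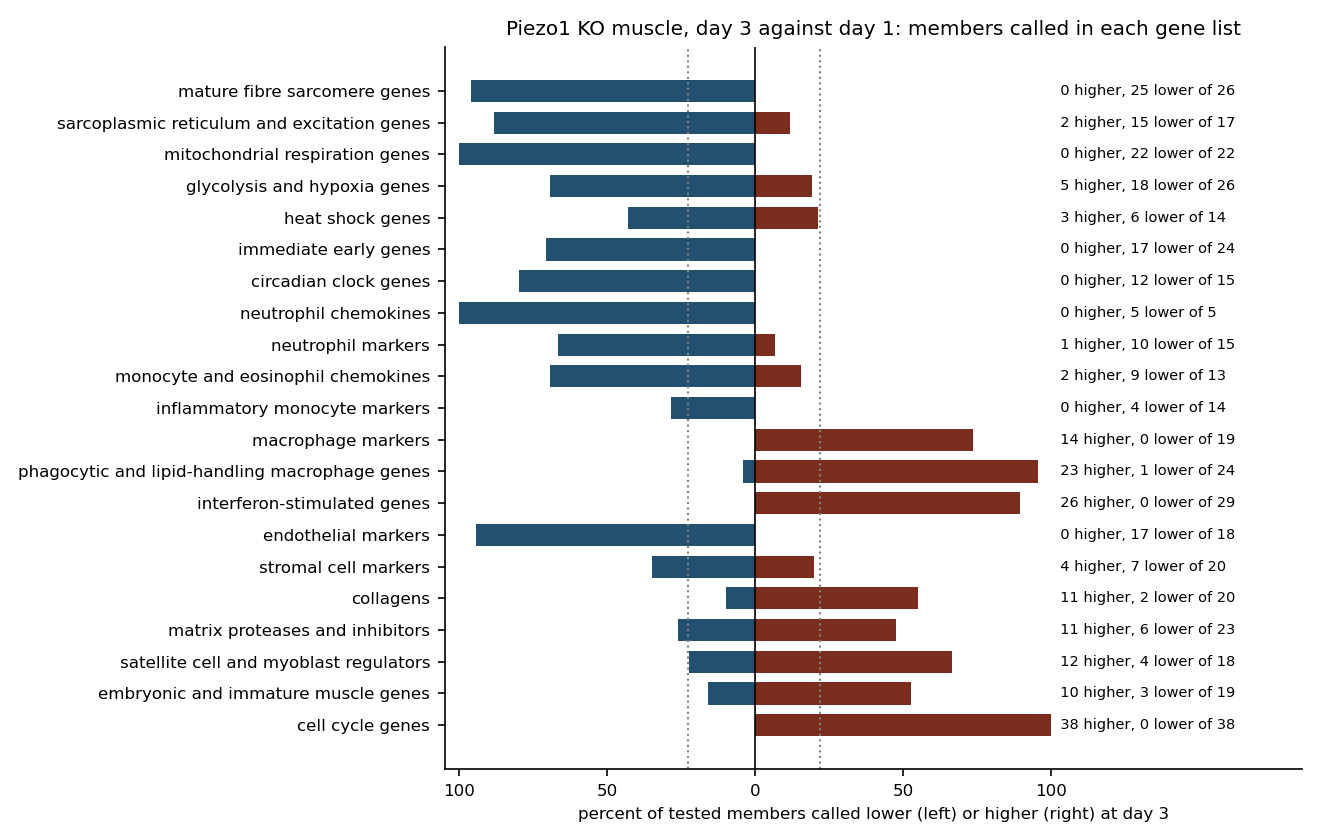
Percent of the tested members of 21 gene lists that were called lower (bars to the left) or higher (bars to the right) in Piezo1 KO muscle at day 3 against day 1, with the counts at the right edge. Dotted lines mark the share of all tested genes called lower (22.6%) and higher (22.0%); all 38 cell cycle genes lie on the right and 25 of 26 mature fibre sarcomere genes on the left.

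The transcripts of the mature contractile fibre fell as a group. Of 26 sarcomere genes tested, 25 were lower at day 3 and none higher, with a median change of -2.92. Myh4, the fast IIb myosin heavy chain, measured 16521, 19913, 24132 and 23321 CPM in the KO libraries of day 1 and 610.3, 1866 and 2289 CPM in those of day 3. The groups were far apart (log2 -3.72 ± 0.39, adjusted p = 4.11e-08), and replicate 1 of day 3 was the lowest. Ckm, muscle creatine kinase, went from 12686, 17924, 18340.0 and 23317 CPM to 509.6, 1530.4 and 2076 CPM (log2 -3.72 ± 0.37, adjusted p = 2.55e-08). Acta1, skeletal alpha-actin, went from 29723, 40566, 44621 and 49547 CPM to 2231, 8867 and 7074 CPM (log2 -2.76 ± 0.35, adjusted p = 9.22e-07). In all 3 genes the 3 libraries of day 3 lay below every library of day 1. Myh1, the IIx myosin, had a log2 change of -2.91. The steepest members were Mylk2, the skeletal myosin light chain kinase (-3.89), Mybpc2, the fast myosin-binding protein C (-3.78) and Tnni2, the fast troponin I (-3.76). Myh7, the slow myosin, was the member that was not called, at 3.94 ± 2.75 CPM (SD, n = 4) and 2.03 ± 1.82 CPM (SD, n = 3).

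Sarcomere genes together summed to 11.8 to 19.3% of scaled counts in KO at day 1 and 0.854 to 2.55% at day 3. The part of this sum in the changes of other genes was not tested. Genes that store and release calcium or carry the action potential moved with the sarcomere. Of 17 tested, 15 fell and 2 rose, with a median of -2.85. Pvalb, the calcium buffer of fast fibres, measured 2009, 2229, 3064 and 2295 CPM at day 1 and 53.4, 78.2 and 154 CPM at day 3 (log2 -4.65 ± 0.36, adjusted p = 9.11e-10). Atp2a1, the calcium pump of the sarcoplasmic reticulum, Myot, a Z-disc protein, and Ryr1, the calcium release channel, had changes of -3.96, -3.16 and -2.96. The 2 that rose were Sln, the small peptide that inhibits the calcium pump (2.10, 2.01, 1.95 and 5.26 CPM at day 1, 19.3, 61.0 and 51.5 CPM at day 3, log2 3.99 ± 0.45, adjusted p = 8.11e-07), and Casq2, the cardiac and slow-fibre calsequestrin, singled out after its value was seen (log2 1.25 ± 0.40, adjusted p = 0.0167). Casq2 was no longer called without KO day 1 replicate 1 (log2 1.06) or KO day 3 replicate 2 (0.84), or without the filter on low counts (1.27). All 3 libraries of day 3 exceeded the 4 of day 1 in Sln.

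Transcripts of energy metabolism were mostly lower as well. All 22 nuclear genes of mitochondrial respiration tested were lower (median -1.11), among them the muscle forms of cytochrome c oxidase Cox6a2 (-3.20), Cox7a1 (-2.97) and Cox8b (-2.81), and Ppargc1a, the coactivator of mitochondrial biogenesis (-2.41). Of 26 glycolysis and hypoxia genes, 18 fell and 5 rose, the latter a share near the 22.0% of all genes that rose. Those that fell most are fibre enzymes or transporters: Pygm, muscle glycogen phosphorylase (2236, 2615, 2904 and 3458 CPM to 86.3, 175 and 275 CPM, log2 -3.97 ± 0.33, adjusted p = 1.60e-09), Hk2, hexokinase of insulin-responsive tissue (-3.53), Pfkm, muscle phosphofructokinase (-3.16), and Slc2a4, the insulin-responsive glucose transporter (-2.96). The 5 that rose, named after their values were seen, were Eno1 (1.28), Pgam1 (1.02), Pfkp (0.63), Pfkl (0.40) and Car9 (1.62). Eno1, Pgam1, Pfkp and Pfkl encode non-muscle or widely expressed forms of enzymes whose muscle forms fell (Eno3 -2.45, Pgam2 -2.43 and Pfkm). Pfkl lost its call without KO day 1 replicate 3 (0.31) or KO day 3 replicate 1 (0.37), and Car9 without KO day 1 replicate 2 (1.40) or 3 (1.39) or KO day 3 replicate 1 (1.52), and the count of 5 became 3 without KO day 1 replicate 3 or KO day 3 replicate 1. Pfkl also lost its call without the filter on low counts (0.41) and with only the compared groups fitted (0.40).

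Neutrophil transcripts were lower at day 3. Of 15 neutrophil markers tested, 10 were lower at day 3, 4 were not called and 1, Mmp8, was higher (log2 0.72 ± 0.24, adjusted p = 0.0191, named after its value was seen). Mmp8 lost its call without KO day 1 replicate 2 (0.61) or KO day 3 replicate 2 (0.67), and with the replicate block (0.64). Lcn2, an iron-sequestering protein of neutrophil granules, measured 89.5, 98.7, 120.1 and 103.1 CPM at day 1 and 2.42, 0.695 and 2.14 CPM at day 3 (log2 -5.99 ± 0.41, adjusted p = 2.80e-10). S100a8 measured 122, 63.6, 73.1 and 51.5 CPM and then 11.4, 6.56 and 4.37 CPM (log2 -3.43 ± 0.37, adjusted p = 2.08e-07), and its partner S100a9 85.9, 49.8, 43.8 and 26.6 CPM and then 4.66, 4.24 and 0.971 CPM (log2 -4.00 ± 0.56, adjusted p = 1.03e-05). The 2 proteins form calprotectin, the main soluble protein of the neutrophil, and replicate 1 of day 1 held the most of both. Cxcr2, the receptor for neutrophil chemokines (log2 -4.20 ± 0.57, adjusted p = 6.84e-06), and Csf3r, the receptor for G-CSF (log2 -1.31 ± 0.32, adjusted p = 0.00195), fell as well. In each of these 5 genes every day 3 library lay below every day 1 library. Ly6g, Mpo and Elane were among the 6 listed markers whose counts were too low to be tested.

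The chemokines that call neutrophils fell with them: all 5 tested were lower. Ppbp, a platelet-derived chemokine, measured 55.3, 38.1, 50.3 and 13.6 CPM at day 1 and 3.11, 0.54 and 2.14 CPM at day 3 (log2 -4.48 ± 0.55, adjusted p = 1.24e-06). Cxcl5, Cxcl2 and Cxcl1, ligands of Cxcr2, changed by -3.20, -3.00 and -2.67. Cxcl3 had no count in any of the 3 libraries of day 3 against 199 counts over the 4 of day 1, so it was at least 71.8-fold higher at day 1, with the day 3 level set at 3 counts over the group. Among 15 genes of the interleukin 1 and TNF family, 3 fell and 7 rose, against 22.6% and 22.0% of all genes. Il1b, the fever-inducing cytokine, fell from 52.9, 32.9, 34.4 and 23.5 CPM to 4.84, 7.02 and 3.11 CPM (log2 -2.83 ± 0.42, adjusted p = 9.50e-06), and Il1rl1, the receptor for interleukin 33, by a like amount (-2.71). The third to fall, Nlrp3, is the sensor of the inflammasome that activates Casp1 (-1.87, named after its value was seen, and not called without KO day 3 replicate 2, at -1.35). Casp1, which cleaves the precursors of Il1b and Il18, rose (1.67), as did Il18 itself (1.59).

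Genes of inflammatory monocytes did not fall as one group. Of 14 tested, 4 were lower, none was higher and 10 were not called, with Ly6c2, Ccr2, Plac8 and Chil3 among the 10, and the share that fell was near the 22.6% of all genes. Ly6c2, the surface antigen of classical monocytes, measured 36.8, 19.1, 19.1 and 26.3 CPM at day 1 and 32.3, 42.7 and 33.0 CPM at day 3, Ccr2, the receptor for Ccl2, 290.2, 229, 214 and 183 CPM and 167, 268 and 157 CPM, and the 2 days overlapped in both. Ly6c2 had a log2 difference of 0.51 ± 0.24 (adjusted p = 0.0887), which reached a call without KO day 1 replicate 1 (0.75) and without the filter on low counts (0.53), and Ccr2 one of -0.21 ± 0.23 (adjusted p = 0.486). Plac8 and Chil3 gave 0.03 ± 0.37 and -0.58 ± 0.30 (adjusted p = 0.961 and 0.132), and Chil3 was called with only the compared groups fitted (-0.57). Arg1, the arginase of early repair macrophages and monocytes, was the exception in size: it measured 251, 249.9, 213 and 180.2 CPM and then 6.56, 5.63 and 4.76 CPM (log2 -5.32 ± 0.50, adjusted p = 1.11e-07). Nos2, the inducible nitric oxide synthase, and Msrb1, a methionine sulfoxide reductase, changed by -2.20 and -0.46. Msrb1 lost its call without KO day 1 replicate 3 (-0.33) or KO day 3 replicate 1 (-0.32). It was also lost without the filter on low counts (-0.45) and with only the compared groups fitted (-0.46).

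Macrophage markers rose: 14 of 19 tested were higher, none lower, with a median of 1.53. Adgre1, which encodes F4/80, measured 151, 119.5, 105 and 110.0 CPM at day 1 and 459.6, 474 and 456 CPM at day 3 (log2 1.93 ± 0.21, adjusted p = 1.14e-07). C1qb, a chain of the first complement component made by macrophages, measured 199.9, 158, 129 and 140.4 CPM and then 667, 744 and 825 CPM (log2 2.25 ± 0.20, adjusted p = 2.74e-09). Both genes were higher in all 3 libraries of day 3 than in any of day 1. C1qa (1.98), Cd68, a lysosomal glycoprotein (1.49), Csf1r, the receptor for macrophage colony-stimulating factor (1.19), Cx3cr1, the fractalkine receptor (2.84), Ms4a7 (2.85) and Folr2, a folate receptor (2.58), rose too. Mrc1, the mannose receptor CD206, was not called (0.13 ± 0.19, adjusted p = 0.606): replicate 1 of day 1, at 262 CPM, exceeded every library of day 3. Together the 19 genes summed to 0.288 to 0.413% of scaled counts at day 1 and 0.971 to 0.986% at day 3.

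The change was wider in genes of phagocytosis, lysosomes and lipid handling, of which 23 of 24 rose and 1, Fabp4, the fatty-acid binding protein of adipocytes and endothelium, fell (-0.75, named after its value was seen). Gpnmb, a glycoprotein of phagocytes loaded with debris, measured 86.0, 80.0, 50.4 and 88.3 CPM at day 1 and 2056, 1494 and 1759 CPM at day 3 (log2 4.54 ± 0.24, adjusted p = 2.67e-12). Spp1, osteopontin, measured 584, 587, 444 and 853 CPM and then 9949.5, 14026 and 5793 CPM (log2 4.01 ± 0.35, adjusted p = 7.22e-09). No day 1 library reached the lowest day 3 library in either gene. Atp6v0d2, a subunit of the proton pump, rose by 5.55 ± 0.52, Abcg1, a cholesterol exporter, by 3.81 ± 0.29, Trem2, the lipid-sensing receptor, by 2.61 ± 0.23, and Fabp5 by 2.28 ± 0.23. The list summed to 0.744 to 0.934% of scaled counts at day 1 and 3.58 to 4.55% at day 3.

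**Figure D2:**
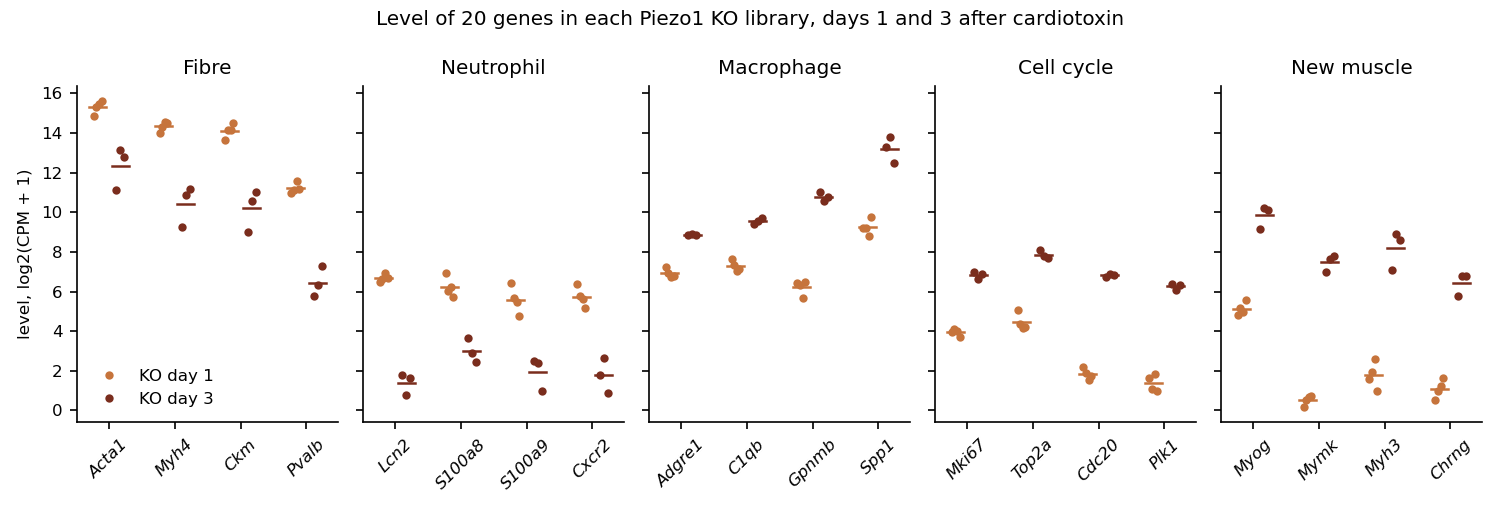
Level of 20 genes, log2(CPM + 1), in each Piezo1 KO library at day 1 (orange, 4 libraries) and day 3 (dark red, 3 libraries); horizontal lines are group means of the points. Fibre and neutrophil genes sit lower at day 3 and macrophage, cell cycle and new muscle genes higher, and the 2 days overlap in none of the 20. Some of the 20 were named by a rule that requires no overlap. Of all genes tested, 21.5% were higher and 21.9% lower at day 3 without overlap.

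Genes of antigen presentation rose in a share near the 22.0% of all genes. Of 16 genes of antigen presentation and dendritic cells, 4 rose and 1, Zbtb46, a transcription factor of dendritic cells and endothelium named after its value was seen, fell (-0.75). The 4 were Itgax, an integrin also carried by macrophages (1.78), Fscn1, an actin bundler (0.84), and the peptide loaders H2-DMb1 (0.93) and H2-DMa (0.82), the former not called without KO day 3 replicate 2 (0.50). H2-Aa, Cd74 and Flt3 were not called (0.33, 0.16 and 0.65). Without KO day 3 replicate 1 the list had 7 genes higher, H2-Aa among them (0.50). T and NK cell transcripts were scarce at both days, 6.08 to 12.7 CPM summed over 11 genes at day 1 and 24.0 to 54.2 CPM at day 3, and 7 of the 11 rose. The 1 that fell, Il2ra, the high-affinity interleukin 2 receptor chain, was named after its value was seen (-2.03), and was not called without KO day 1 replicate 3 (-1.53) or KO day 3 replicate 1 (-1.73) or 2 (-1.92). Cd4 had 1 count in the 4 libraries of day 1 and 107 in the 3 of day 3, a ratio of 98.9 (95% exact binomial interval of counting error 17.4 to 3941). Gzma, a granzyme, went from 0.943 to 6.74 CPM (2.81). Cd3e, the defining T cell receptor chain, measured 2.10, 0.144, 0 and 0.164 CPM and 2.42, 0.772 and 0.583 CPM and was not called, except without KO day 1 replicate 1 (3.34), and Ncr1, an NK cell receptor, was not called (1.83, adjusted p = 0.0526) but was called without KO day 1 replicate 2 (2.84), without the filter on low counts (1.84), with only the compared groups fitted (1.84) and by DESeq2 (1.88). Without KO day 3 replicate 2, 4 of the 11 rose.

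Interferon-stimulated genes rose broadly but unevenly between libraries. Of 29 tested, 26 were higher and none lower, with a median of 1.19. Ifit3, an antiviral effector, measured 28.2, 29.0, 18.0 and 34.9 CPM at day 1 and 53.02, 226 and 121 CPM at day 3 (log2 2.28 ± 0.42, adjusted p = 2.41e-04). Irf7, the transcription factor that amplifies the response, measured 69.2, 42.1, 29.0 and 56.7 CPM and then 59.2, 283 and 186 CPM (log2 1.84 ± 0.42, adjusted p = 0.00151). Replicate 2 of day 3 was the highest in both and replicate 1 the lowest, and in Irf7 replicate 1 of day 3 lay within the day 1 range. Ifit2 and Ifi44 rose by 2.24 ± 0.37 and 2.14 ± 0.37. Summed over the list, replicates 1, 2 and 3 of day 3 held 0.103, 0.260 and 0.191% of scaled counts, against 0.0547 to 0.0866% at day 1.

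Cell division rose throughout its list. All 38 cell cycle genes tested were higher at day 3, with a median of 2.96, and the summed level went from 0.06295 to 0.0914% of scaled counts at day 1 to 0.365 to 0.423% at day 3. Mki67, the proliferation antigen, measured 14.3, 16.5, 15.0 and 12.2 CPM at day 1 and 126, 99.9 and 117 CPM at day 3 (log2 2.98 ± 0.23, adjusted p = 3.46e-10). Top2a, the topoisomerase that untangles replicated DNA, measured 32.5, 19.6, 17.1 and 17.4 CPM and then 271, 219 and 209 CPM (log2 3.42 ± 0.30, adjusted p = 1.22e-08), and Cdk1, the mitotic kinase, 14.01, 10.4, 11.3 and 8.72 CPM and then 121, 109 and 109 CPM (log2 3.34 ± 0.30, adjusted p = 1.29e-08). The days were wide apart in all 3. The largest changes were in mitotic genes: Plk1, a kinase of mitotic entry, at 2.10, 1.15, 2.55 and 0.987 CPM and then 82.5, 67.1 and 80.1 CPM (log2 5.47 ± 0.40, adjusted p = 5.89e-10), Cdc20, the activator of the anaphase-promoting complex (log2 5.38 ± 0.37, adjusted p = 2.47e-10), and the B-type cyclins Ccnb2 (log2 5.16 ± 0.34, adjusted p = 8.67e-11) and Ccnb1 (log2 5.12 ± 0.35, adjusted p = 1.44e-10).

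The promoters of these 4 genes are shown because genes of the G2 and M phases rose together, and such promoters are known for CCAAT boxes bound by NF-Y and for CHR elements. The 120 bases just before each start site are written 5′ to 3′ on the gene's strand, from RefSeq (GRCm38.p6), in lower case with every CCAAT on that strand in capitals.
Plk1 (chr7:122159315-122159434, plus strand): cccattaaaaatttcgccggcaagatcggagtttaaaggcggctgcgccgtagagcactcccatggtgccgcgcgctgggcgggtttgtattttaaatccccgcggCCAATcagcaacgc
Cdc20 (chr4:118437344-118437463, minus strand): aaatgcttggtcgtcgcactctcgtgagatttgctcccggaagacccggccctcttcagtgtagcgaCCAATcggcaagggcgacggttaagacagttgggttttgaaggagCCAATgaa
Ccnb2 (chr9:70421555-70421674, minus strand): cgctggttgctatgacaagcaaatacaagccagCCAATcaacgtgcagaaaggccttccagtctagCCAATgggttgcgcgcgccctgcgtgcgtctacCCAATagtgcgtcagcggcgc
Ccnb1 (chr13:100786487-100786606, minus strand): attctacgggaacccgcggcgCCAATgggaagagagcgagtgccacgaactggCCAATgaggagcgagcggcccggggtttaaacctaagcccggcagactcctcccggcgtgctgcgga
Plk1 holds 1 CCAAT in this stretch, Cdc20 2, Ccnb2 3 and Ccnb1 2. Of the 38 cell cycle genes, 30 had an entry in the RefSeq table, and 24 of these (80%) held CCAAT on either strand within 250 bases before the start. This compares with 34.5% of all 27025 promoters of that length and 35.9% of the 11262 promoters of genes tested. At least 2 matches were present in 15 of the 30 (50%), against 10.5% of all and 13.1% of those tested. The CHR sequence TTTGAA was present in 9 of the 30 (30%), against 16.3% of all and 10.9% of those tested. Its variant TTCGAA was present in 3 (10%), against 1.34% and 1.76%. A match describes the letters and is not evidence of binding.

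Genes of the muscle lineage were mostly higher at day 3. Of 18 regulators and markers of satellite cells and myoblasts, 12 rose and 4 fell, the latter a share near the 22.6% of all genes that fell. Their summed level did not rise in KO as most of the genes did. In KO it was 0.417 to 0.575% of scaled counts at day 1 and 0.260 to 0.424% at day 3. In WT it was 0.479 to 0.525% and then 0.518 to 0.590%. A sum follows its most abundant members, and this one includes Des, a muscle filament that fell (-2.08). It is therefore no measure of the regulators alone, and the part of Des in it was not tested. Pax7, which marks satellite cells, measured 0.98, 1.29, 1.201 and 2.80 CPM at day 1 and 5.01, 6.87 and 6.80 CPM at day 3 (log2 2.01 ± 0.37, adjusted p = 1.10e-04), and Myf5 rose by a like amount (1.87 ± 0.47). Myod1, the myoblast determination factor, went from 112, 108, 97.3 and 111 CPM to 305, 206 and 340.2 CPM (log2 1.41 ± 0.16, adjusted p = 1.88e-07). Myog, which drives terminal differentiation, measured 27.2, 34.9, 30.8 and 47.4 CPM and then 564, 1202 and 1125 CPM (log2 4.78 ± 0.34, adjusted p = 7.19e-10), so it changed far more than Pax7, Myf5 or Myod1. None of the 4 overlapped between days. The 4 that fell, apart from Des named after their values were seen, were Des, the muscle intermediate filament (-2.08), Myf6, the regulator of mature fibres (-1.61), Mef2c (-1.08) and Chodl (-0.95), the last not called without KO day 3 replicate 1 (-0.72). Ncam1 and Cdh15, adhesion proteins of myoblasts, and Msc, a repressor of Myod1 activity, rose by 3.42 ± 0.18, 2.92 ± 0.20 and 2.42 ± 0.31.

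Mymk and Mymx, the muscle fusogens, were near 0 at day 1. Mymk, the myomaker membrane protein, measured 0.14, 0.431, 0.6 and 0.658 CPM at day 1 and 125, 195 and 222 CPM at day 3 (log2 8.61 ± 0.36, adjusted p = 6.96e-14). Mymx, the fusion micropeptide myomixer, had 1 count over the 4 libraries of day 1 and 2070 over the 3 of day 3, a ratio of 1913 (95% exact binomial interval of counting error 343 to 75580), and measured 25.4, 104 and 55.5 CPM at day 3. Both genes lack an entry in the promoter table. Of the 9 fusion genes tested, 4 rose and 3 fell, against 22.0% and 22.6% of all genes. Cdh2, N-cadherin (4.18 ± 0.30) and Jam3, a junction protein (0.98), were the other risers. Myoz2, a slow-fibre Z-disc protein (-1.49 ± 0.38), Cav3, the muscle caveolin (-0.96), and Il4ra, the interleukin 4 receptor (-0.76), were the ones that fell. Jam3, Cav3 and Il4ra were named after their values were seen, and Il4ra was not called without KO day 1 replicate 1 (-0.63) or KO day 3 replicate 2 (-0.63).

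Of 19 embryonic and immature muscle genes, 10 rose and 3 fell, against 22.0% and 22.6% of all genes. Their summed level as a percent of scaled counts was lower in KO at day 3, 0.280 to 0.415% at day 1 and 0.151 to 0.265% at day 3. In WT it was 0.269 to 0.357% and then 0.283 to 0.575%. The sum includes the 3 that fell, given below, so it does not follow the embryonic forms alone. The TMM factors lower the day 3 values, and shares of each library's own counts were not compared. Myh3, the embryonic myosin, measured 1.96, 2.88, 5.10 and 0.987 CPM at day 1 and 133, 471 and 392 CPM at day 3 (log2 6.91 ± 0.53, adjusted p = 9.74e-09). Replicate 1 of day 3 held the least, as it did for Mymk and Mymx, and still lay far above day 1. Chrng, the fetal subunit of the acetylcholine receptor, measured 0.42, 1.01, 1.35 and 2.14 CPM and then 53.4, 110.5 and 109 CPM (log2 6.23 ± 0.42, adjusted p = 2.61e-10). Myh8, the perinatal myosin (4.01 ± 0.58), Myl4, the embryonic light chain (3.37 ± 0.34), and Tnnt2, cardiac troponin T that regenerating fibres express (4.65 ± 0.29), rose too. The 3 that fell are known as stress-responsive proteins of injured fibres: Xirp1 (log2 -5.34 ± 0.42, adjusted p = 3.23e-09), Csrp3 (-4.04) and Ankrd1 (-2.16), the last 2 named after their values were seen. The promoter of Chrng, chosen after its values were seen because of the size of its rise, is shown with the E-box CAGCTG, a sequence that Myod1 and Myog can bind, in capitals over the 180 bases before the start.
Chrng (chr1:87205631-87205810, plus strand, GRCm38.p6): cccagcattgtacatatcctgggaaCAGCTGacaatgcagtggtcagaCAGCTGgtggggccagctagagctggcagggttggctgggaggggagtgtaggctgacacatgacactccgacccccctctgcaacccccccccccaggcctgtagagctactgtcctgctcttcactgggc
It holds 2 matches. Within 250 bases before the start, CAGCTG was present in 5 of the 16 embryonic and immature muscle genes with an entry (31.2%). This compares with 12.8% of all 27025 promoters and 12.2% of the 11262 promoters of genes tested.

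Most collagens rose. Of 20 collagens tested, 11 rose and 2 fell. Col3a1, of early repair matrix, measured 1319, 1550.4, 1573 and 1659 CPM at day 1 and 5388, 2396 and 6588 CPM at day 3 (log2 1.65 ± 0.25, adjusted p = 7.82e-06), and Col1a1 1086, 1475, 1538 and 1475 CPM and then 3297, 2240.3 and 4281 CPM (log2 1.23 ± 0.20, adjusted p = 2.90e-05). Replicate 2 of day 3 was the lowest in both and still above every day 1 library. Col5a1, which seeds fibrils, Col12a1 and Col14a1, which decorate them, rose by 1.90 ± 0.19, 1.22 ± 0.21 and 1.49 ± 0.21. The 2 that fell were the chains of basement membrane collagen, Col4a1 (-1.19 ± 0.25) and Col4a2 (-1.54 ± 0.24), Col4a1 being named after its value was seen.

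Of 25 matrix glycoproteins and crosslinkers, 10 rose and 7 fell, against 22.0% and 22.6% of all genes. Postn, periostin, measured 62.7, 58.4, 90.1 and 55.1 CPM at day 1 and 619, 449 and 639 CPM at day 3 (log2 3.09 ± 0.27, adjusted p = 5.86e-09). Cthrc1, a secreted protein of activated fibroblasts, rose by 3.63 ± 0.30 and Fbn2, the fibrillin of development, by 3.25 ± 0.40, while Has1, a hyaluronan synthase, fell (-3.05 ± 0.54). Tnc, tenascin C, was not called (-0.22 ± 0.22, adjusted p = 0.436) except without KO day 3 replicate 1 (-0.58). Fn1, fibronectin, was slightly lower (-0.55 ± 0.20, adjusted p = 0.0314) but not called without KO day 1 replicate 1 (-0.40) or 2 (-0.54) or KO day 3 replicate 2 (-0.41) or 3 (-0.53). Nor was Fn1 called with only the compared groups fitted (-0.54). Of 23 matrix proteases and inhibitors, 11 rose and 6 fell, against 22.0% and 22.6% of all genes. Mmp13, a collagenase (4.22 ± 0.37), Mmp12, the macrophage elastase (3.05 ± 0.52), Ctsk, cathepsin K (2.41 ± 0.20), and Mmp14, the membrane-bound protease (1.22 ± 0.18), rose, and Adamts1 fell from 220.0, 187, 187 and 170.4 CPM to 39.2, 25.9 and 39.1 CPM (log2 -2.47 ± 0.18, adjusted p = 1.52e-10). Timp1, the protease inhibitor, was lower at -0.65 ± 0.26 (adjusted p = 0.049), a call that was lost on leaving out any of the 7 KO libraries (-0.75 to -0.54). It was also lost with RLE scaling (-0.64) and with the replicate block (-0.66).

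Markers of the stromal cells in which Pdgfra-Cre acts did not all move in 1 direction. Their summed level as a percent of scaled counts was lower in KO at day 3, 0.294 to 0.368% at day 1 and 0.207 to 0.266% at day 3. In WT it was 0.306 to 0.366% and then 0.238 to 0.282%. The TMM factors lower the day 3 values, and shares of each library's own counts were not compared. Of 20 stromal markers, 4 rose, 7 fell and 9 were not called, against 22.0% and 22.6% of all genes. Pdgfra itself measured 129, 121, 123 and 84.2 CPM at day 1 and 90.8, 91.6 and 81.4 CPM at day 3, and the 2 days overlapped (log2 -0.38 ± 0.15, adjusted p = 0.0391). Its call was lost without KO day 1 replicate 1 (-0.31), 2 (-0.34) or 3 (-0.34), or without KO day 3 replicate 1 (-0.40), 2 (-0.41) or 3 (-0.33). It was also lost without the filter on low counts and with only the compared groups fitted (-0.37 in each). Ly6a, which encodes Sca1, and Dcn, decorin, were lower by little (-0.54 ± 0.15 and -0.41 ± 0.16, adjusted p = 0.00588 and 0.0411), and without KO day 3 replicate 1 neither was called (-0.39 and -0.26). Dcn was also not called without KO day 1 replicate 2 (-0.37), 3 (-0.33) or 4 (-0.42), or with only the compared groups fitted (-0.40). Gsn, gelsolin, fell (-1.12 ± 0.19), while the matrix proteins Col14a1, Lum (1.48 ± 0.18), Fbln1 (1.10 ± 0.24) and Mfap5 (0.50 ± 0.17, named after its value was seen) rose, the last not called without KO day 1 replicate 4 (0.47) or KO day 3 replicate 2 (0.39). Without KO day 3 replicate 1, 3 stromal markers fell in place of 7, and with only the compared groups fitted 4 fell.

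Most markers of vessel lining were lower. Of 18 endothelial markers, 17 fell and none rose, with a median of -1.46. Cdh5, VE-cadherin, measured 82.2, 74.9, 83.6 and 74.5 CPM at day 1 and 24.9, 22.5 and 28.6 CPM at day 3 (log2 -1.64 ± 0.15, adjusted p = 4.84e-09). Apln, the apelin peptide of sprouting tips, went from 151, 126, 136 and 82.9 CPM to 8.29, 10.9 and 7.48 CPM (log2 -3.79 ± 0.25, adjusted p = 3.02e-11), while Aplnr, its receptor, was the marker not called (-0.19, named after its value was seen). Pecam1 (-1.27), the VEGF receptors Kdr (-1.30) and Flt1 (-2.70), Sox17 (-2.08) and Robo4 (-2.06) fell as well. Of 12 pericyte and smooth muscle markers, 6 fell and 1 rose, against 22.6% and 22.0% of all genes. Rgs5 (-0.85), Myh11 (-1.20), the channel subunits Abcc9 (-2.16) and Kcnj8 (-1.58) and Des, which fibres also hold, were lower, and Acta2, smooth muscle actin that myoblasts and myofibroblasts also make, rose from 88.1, 77.7, 76.4 and 91.1 CPM to 254, 285 and 290.2 CPM (log2 1.73 ± 0.18, adjusted p = 3.13e-08). Of 10 Schwann cell markers, 5 fell, 1 rose and 4 were not called, against 22.6% of all genes that fell and 22.0% that rose. Their summed level overlapped between the days (0.0203 to 0.0304% of scaled counts at day 1 and 0.0152 to 0.0239% at day 3). Those that fell included the myelin genes Prx (-1.83 ± 0.42) and Mbp (-1.02 ± 0.25), and Cdh19 (-1.48 ± 0.56, named after its value was seen). Cdh19 lost its call without KO day 1 replicate 4 (-1.22) or KO day 3 replicate 2 (-1.28) or 3 (-1.52). It was also lost without the filter on low counts (-1.47), with the replicate block (-1.42) and with thinned counts (-1.39). Sox10, the lineage's transcription factor, was not called (-1.13, adjusted p = 0.256). Ngfr, the neurotrophin receptor, was the one that rose (0.92, named after its value was seen), and was not called without KO day 1 replicate 2 (0.79) or 4 (0.74) or KO day 3 replicate 1 (0.84) or 2 (0.77). Nor was Ngfr called with the replicate block (0.81), with thinned counts (0.80) or with only the compared groups fitted (0.93).

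Of 25 growth factors of repair, 8 rose and 7 fell, against 22.0% and 22.6% of all genes. Igf1, a growth factor for myoblasts, measured 43.1, 40.0, 66.8 and 48.8 CPM at day 1 and 169, 189 and 172 CPM at day 3 (log2 1.83 ± 0.19, adjusted p = 4.12e-08). Igfbp2, which binds insulin-like growth factors, had 1 count over the 4 libraries of day 1 and 584 over the 3 of day 3, a ratio of 540 (95% exact binomial interval of counting error 96.5 to 21350). Gdf3, which repair macrophages secrete, and Hgf, which activates satellite cells, rose by 2.42 ± 0.39 and 2.37 ± 0.38, and Hbegf, an EGF receptor ligand, fell, with a log2 change of -2.56 ± 0.28. All 3 libraries of day 3 exceeded those of day 1 in Igf1, Gdf3 and Hgf.

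Ranked over all genes by size of change, among those whose days did not overlap and whose higher day averaged 20 CPM or more, the 10 that rose most were R3hdml, Mymx, Mymk, Myh3, Chrng, Sfrp2, Atp6v0d2, Plk1, Pnmal2 and Cdc20. R3hdml, a secreted protein of the CAP family, had no count in the 4 libraries of day 1 and measured 13.6, 29.9 and 22.6 CPM at day 3, which was at least 216-fold higher with day 1 set at 3 counts over the group. Sfrp2, a WNT modulator made by stromal cells and myoblasts, rose from 7.14, 5.03, 5.70 and 6.91 CPM to 339, 303 and 248 CPM (log2 5.58 ± 0.41, adjusted p = 3.70e-09), and Pnmal2 by 5.41 ± 0.39. The 10 that fell most included Car8, Lcn2, Cacna2d4, Xirp1, Arg1, Abra, Nmrk2, Pvalb and Cnksr1. Abra, an actin-binding activator of SRF signalling in fibres, measured 211, 285, 242 and 202 CPM and then 6.39, 5.17 and 9.42 CPM (log2 -5.07 ± 0.30, adjusted p = 1.51e-11). Nmrk2, a kinase of NAD synthesis in muscle, changed by -4.99 ± 0.34, Cacna2d4, a calcium channel subunit, by -5.53 ± 0.57, and Cnksr1, a signalling scaffold, by -4.52 ± 0.29.

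The same interval in WT muscle called 4149 genes (26.8% of those tested; 2189 higher and 1960 lower, or 14.1% and 12.6%), and the interaction was called for 906 (5.85%), 195 with a higher KO change (1.26%) and 711 with a lower one (4.59%). The interaction count depended on single libraries: it was 413 without WT day 3 replicate 3, 568 without KO day 1 replicate 4 and 584 without WT day 1 replicate 2. Of the 711, 669 were genes that fell in KO, and of the 195, 168 rose in KO, against 22.6% and 22.0% of all genes. The interaction contains the KO change itself, so this overlap is partly built in and is no separate result. The middle 90% of changes ran from -2.20 to 1.91 in KO and from -1.23 to 1.60 in WT. Below, some genes are said not to overlap between the genotypes at a given day. The share of all genes that did so was not counted, so these statements only describe the libraries.

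The fibre program fell further in KO. In 22 of the 26 sarcomere genes and 14 of the 17 calcium and excitation genes the interaction was lower. Myh4 measured 16460.0, 13183, 19067 and 18001 CPM in WT at day 1 and 6898, 6594 and 11093 CPM at day 3, a change of -1.03 ± 0.34 against -3.72 ± 0.39 in KO (interaction log2 -2.70 ± 0.48, adjusted p = 0.00137). The interaction was -2.43 ± 0.46 for Ckm, -3.07 ± 0.43 for Pvalb, -2.82 ± 0.49 for Atp2a1 and -2.25 ± 0.34 for Ryr1, and all 4 were called (adjusted p = 0.00228, 3.19e-04, 0.0012 and 5.08e-04). Acta1 was called too (-1.81 ± 0.46, adjusted p = 0.0182), but not without WT day 3 replicate 3 (-1.56) or without the filter on low counts (-1.80). Sarcomere genes summed to 12.3 to 15.6% of scaled counts in WT at day 1. They summed to 5.59, 6.10 and 9.66% in the 3 WT libraries of day 3, the third being replicate 3, against 0.854 to 2.55% in KO. The genotypes did not overlap at day 3 and overlapped at day 1. Pygm was lower by the interaction (-2.76 ± 0.40) with 9 more of the 26 glycolysis genes, 5 in all without WT day 3 replicate 3, and 6 of the 22 respiration genes were lower, a count that ran from 2 to 14 as single libraries were left out, with 2 being the count without WT day 3 replicate 3 and 14 that without KO day 1 replicate 1.

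The cell cycle rose further in KO: 22 of 38 genes had a higher change and none a lower one. Without WT day 3 replicate 3 the count was 12 and without WT day 1 replicate 2 it was 14. Mki67 measured 33.6, 35.4, 22.9 and 16.0 CPM in WT at day 1 and 76.0, 69.0 and 45.2 CPM at day 3 (interaction 1.75 ± 0.31, adjusted p = 0.00144). Plk1 measured 11.98, 13, 8.52 and 4.37 CPM and then 60.4, 45.2 and 24.1 CPM (interaction 3.29 ± 0.53, adjusted p = 8.95e-04). At day 3 every KO library lay above every WT library in both genes. At day 1 every KO library lay below every WT library in Plk1, and in Mki67 the lowest WT library fell within the KO range. Cdc20 (2.66 ± 0.49), Ccnb1 (2.57 ± 0.47), Top2a (1.89 ± 0.41) and Cdk1 (1.83 ± 0.42) were also called.

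**Figure D3:**
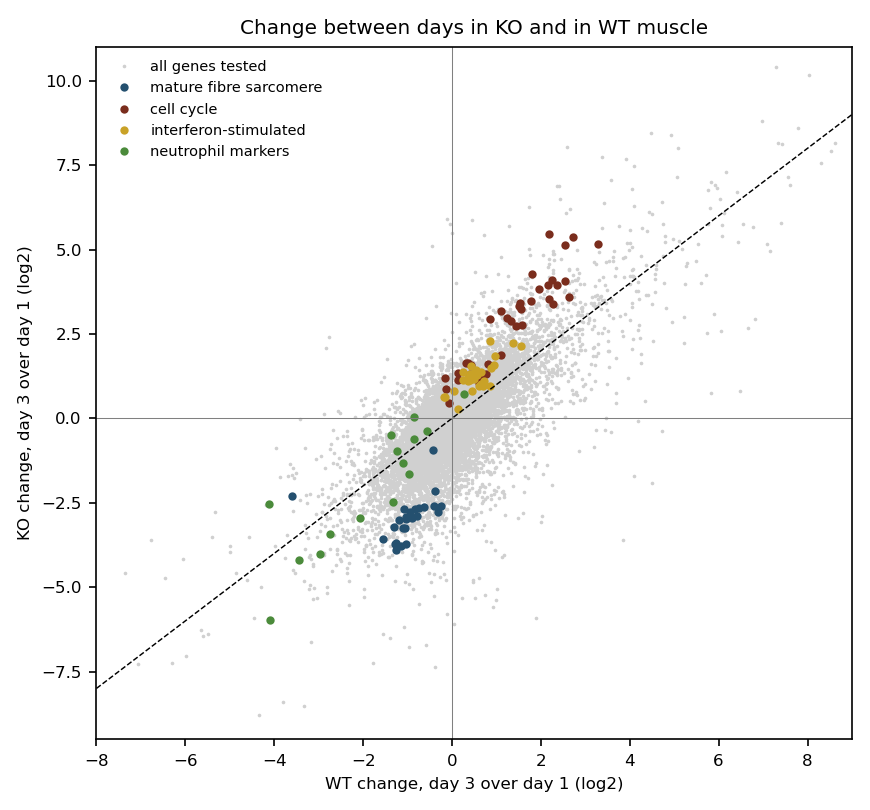
Change between days in KO muscle (vertical axis) against the change in WT muscle (horizontal axis), both log2 of day 3 over day 1, for all 15499 genes tested (grey) and 4 gene lists (colours); the dashed line marks equal change. Sarcomere genes lie mostly below the line and cell cycle genes mostly above it; the interaction was called for 22 genes of each list.

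By edgeR's test, no member of the macrophage, phagocytic, interferon-stimulated, endothelial or collagen lists was called by the interaction, where 5.85% of all genes were. At an unadjusted p under 0.05 the counts were 5 of 19, 9 of 24, 6 of 29, 3 of 18 and 1 of 20, against 19.4% of all genes, and DESeq2 called 2 phagocytic genes and none in the other 4 lists. Without the filter on low counts, the same test called 5 phagocytic, 2 macrophage and 2 interferon-stimulated genes, all with a higher KO change. Thinned counts called 1 phagocytic gene. With 1 library left out it called at most 2 phagocytic genes (2 without KO day 3 replicate 1, and 1 each without KO day 1 replicate 1 or 3, KO day 3 replicate 3, WT day 1 replicate 4 or WT day 3 replicate 2), 1 macrophage gene (without KO day 1 replicate 1 or WT day 3 replicate 1) and 1 endothelial gene, with a lower KO change (without WT day 3 replicate 1). For interferon-stimulated genes, 8 of 29 rose in WT and the median change was 0.53, against 26 and 1.19 in KO, and the difference was called for none of them with the filter and for 2 without it. Of 13 monocyte and eosinophil chemokines tested, 9 fell and 2 rose in KO, against 22.6% and 22.0% of all genes. The 2 that rose were Ccl5 (1.82) and Ccl3 (0.93), both named after their values were seen. Ccl3 lost its call without KO day 1 replicate 2 (0.84), 3 (0.96) or 4 (0.90) or KO day 3 replicate 1 (0.92) or 2 (0.68). In the interaction, 3 had a higher KO change and 1, Ccl24, a lower one. The call of Ccl24 was lost without any 1 of the 3 KO day 3 libraries or KO day 1 replicate 1, 2 or 3. It was also lost without WT day 1 replicate 1 or 2 or WT day 3 replicate 2 or 3. Thinned counts, the replicate block and a fit of only the compared groups lost it too. Ccl2, the ligand of Ccr2, measured 652, 415, 594 and 349 CPM in KO at day 1 and 147, 219 and 78.9 CPM at day 3 (log2 -1.76 ± 0.38, adjusted p = 9.49e-04), and in WT 513, 611, 509.8 and 520.4 CPM and then 54.8, 43.8 and 38.5 CPM. The day 3 libraries of the genotypes did not overlap, KO being higher (interaction 1.80 ± 0.52, adjusted p = 0.0473). Ccl7 and Ccl12, ligands of the same receptor, fell in KO by a log2 of -1.75 ± 0.40 and -1.11 ± 0.36, with interactions of 2.13 ± 0.55 and 1.84 ± 0.52 (adjusted p = 0.0279 and 0.0365). None of the 3 interactions was called without KO day 3 replicate 2 (1.32 to 1.40), the highest of the KO day 3 libraries in all 3 genes, nor without KO day 1 replicate 4, WT day 1 replicate 2, WT day 3 replicate 2 or WT day 3 replicate 3 (1.65 to 2.04). That of Ccl2 was also lost without KO day 1 replicate 2 or 3, KO day 3 replicate 1 or WT day 1 replicate 1, 3 or 4 (1.72 to 1.89), without the filter on low counts (1.81), with the replicate block (1.75) and by DESeq2 (1.80). That of Ccl12 was also lost without KO day 1 replicate 2 or 3 or WT day 1 replicate 1 (1.77 to 1.82) and with the replicate block (1.79), and that of Ccl7 without the filter (2.14). The fall of Ccl12 in KO was not called without KO day 1 replicate 1 (-0.89) or KO day 3 replicate 1 (-0.97) or 3 (-0.87). Ccl24, an eosinophil chemokine, and Ccl6 fell in KO (-2.70 ± 0.41 and -1.62 ± 0.25).

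**Figure D4:**
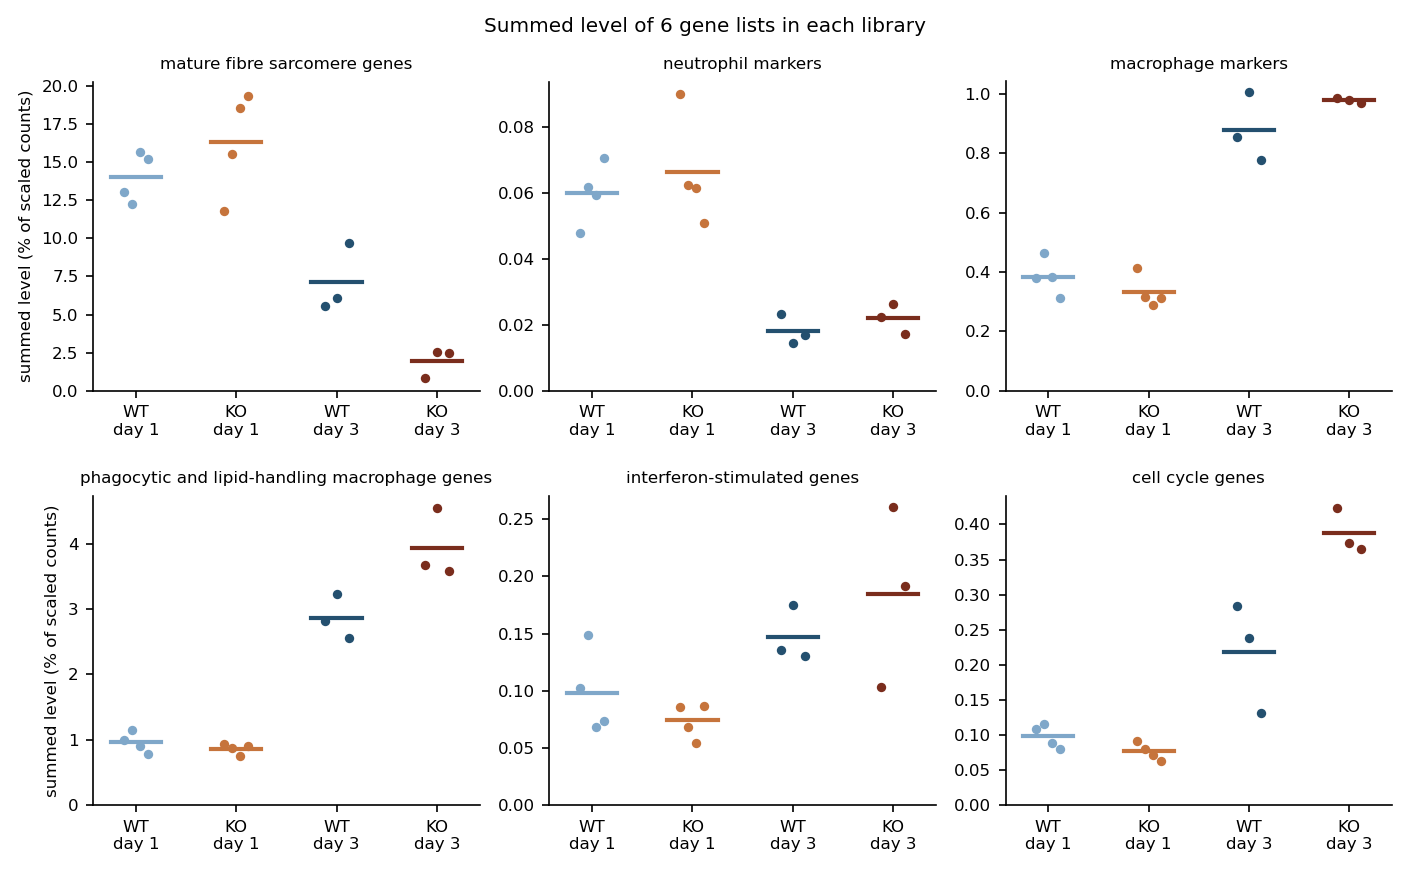
Summed level of 6 gene lists as a percent of scaled counts in each WT and KO library at days 1 and 3; lines are group means, and all vertical axes start at 0. Sarcomere genes end at 0.854 to 2.55% in KO and 5.59 to 9.66% in WT at day 3, and cell cycle genes at 0.365 to 0.423% in KO and 0.132 to 0.284% in WT.

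Among genes called by the interaction that averaged at least 10 CPM in 1 of the 4 groups, with predicted and similar genes left out, the 6 with the largest interactions toward a lower KO change were Kcnc1 (-3.87 ± 0.69), Scn4b (-3.77 ± 0.66), Ampd1 (-3.59 ± 0.57), Car8 (-3.44 ± 0.80), Asb15 (-3.43 ± 0.73) and Kcng4 (-3.37 ± 0.70). Kcnc1 and Kcng4 encode potassium channel subunits, Scn4b a sodium channel subunit and Ampd1 the AMP deaminase of muscle. Ampd1 measured 199, 272, 355 and 364 CPM and then 11.7, 18.1 and 37.8 CPM in KO, and 157, 133, 240.1 and 280.2 CPM and then 102, 152 and 307 CPM in WT, so it fell in KO alone by the test (WT change -0.12, adjusted p = 0.862). Car8 lost its interaction without KO day 3 replicate 2 (-2.67) or WT day 3 replicate 2 (-2.85), and with thinned counts (-2.96). Mstn, myostatin, the inhibitor of muscle growth, fell in KO from 13.03, 16.97, 22.4 and 26.1 CPM to 1.04, 4.40 and 3.30 CPM and measured 14.8, 12.8, 11.7 and 19.8 CPM and then 15.5, 13.8 and 16.2 CPM in WT (interaction -2.68 ± 0.50, adjusted p = 0.00239).

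Under the same limits, the 6 with the largest interactions toward a higher KO change were Plk1, Tmem87a (3.01 ± 0.42), Nusap1 (2.80 ± 0.54), Cdc20, Hmmr (2.59 ± 0.67) and Ccnb1. Nusap1 and Hmmr are spindle proteins, and Hmmr was not called without KO day 1 replicate 2 (2.49) or 3 (2.33), KO day 3 replicate 2 (2.44), WT day 1 replicate 1 (2.47) or 2 (2.03) or WT day 3 replicate 3 (2.27). Tmem87a, a membrane protein of the Golgi, measured 9.94, 6.62, 5.10 and 9.37 CPM in KO at day 1 and 52.7, 82.1 and 64.2 CPM at day 3, against 73.8, 72.8, 37.1 and 66.4 CPM and then 68.3, 68.8 and 63.0 CPM in WT. The genotypes did not overlap at day 1 and overlapped at day 3. Tmem87a and Nusap1 both lie on chromosome 2, which held 28 of the 195 genes with a higher interaction and 1162 of the 15499 genes tested.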

How the data were processed

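RNA from frozen whole TA muscle, 2 ng per library per the labels' protocols, was sequenced after polyA selection. The values are whole-number read counts per gene symbol, deposited by the authors as 1 table of 55011 symbols and 90 libraries. The submitters' processing notes name STAR 2.7.3a, the mm10 build and featureCounts. The version of featureCounts, the annotation and the strand setting were not given in the sources used here, and overlapping or antisense genes may share reads. Columns were matched to samples by title.

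Of the symbols, 96.2% were found in GENCODE (mm10), used for positions; promoters are from RefSeq (GRCm38.p6). Counts were fitted with edgeR 4.0.16 in R 4.3.3 (filterByExpr with a minimum count of 10, TMM scaling, robust quasi-likelihood, Benjamini-Hochberg over 15499 genes) on all 20 TA libraries in 6 groups, without a replicate block. SE is the log2 change divided by the root of F. Alternatives used RLE scaling, no filter, the block, glmTreat, thinned counts, the compared groups alone, each library left out and DESeq2 1.42.0. On simulated data with 200 changed genes, the KO comparison recovered 54% of genes changed by log2 1 and 91% of those by log2 2, and the interaction 24% and 83%. Those 200 of 14879 genes were changed in KO day 3 alone, and all groups otherwise had the same mean levels. In the data far more genes were called, so these shares need not hold for the comparisons reported. No 2 libraries agreed within counting noise.

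Members and lists were chosen with earlier results of these data known. Named genes are Piezo1; in each direction, the 10 called genes of largest change whose days do not overlap and whose higher day averages 20 CPM or more, with no predicted, mitochondrial, histone or immune receptor genes; in each list its defining genes and up to 4 called genes with the largest change and at least 10 CPM; and up to 6 per direction for the interaction. Others are said to be named after their values were seen. Some genes meeting these rules are not reported here. Intervals for ratios cover counting error only.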

Additional observations from a re-analysis of the deposited data

Results flagged for a closer look

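The change between days differed between genotypes, by edgeR's test of the interaction, for 29 genes named here, on the log2 scale as KO change minus WT change. It was lower in KO for fibre genes: Acta1 (-1.81), Myh4 (-2.70), Ckm (-2.43), Atp2a1 (-2.82), Pvalb (-3.07), Ryr1 (-2.25), Pygm (-2.76), Xirp1 (-2.21), Kcnc1 (-3.87), Scn4b (-3.77), Ampd1 (-3.59), Car8 (-3.44), Asb15 (-3.43) and Kcng4 (-3.37). It was also lower for Mstn (-2.68) and for the atrophy genes Fbxo32 (-2.17) and Klf15 (-3.37). It was higher in KO for the cell cycle and spindle genes Plk1 (3.29), Cdc20 (2.66), Ccnb1 (2.57), Mki67 (1.75), Top2a (1.89), Cdk1 (1.83), Nusap1 (2.80) and Hmmr (2.59), for the chemokines Ccl2 (1.80), Ccl7 (2.13) and Ccl12 (1.84), and for Tmem87a (3.01).

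In some groups of 4 libraries at day 1, a single library stood apart from the other 3 by Dixon's ratio of its gap to the group's range, where values above its 95% critical value pass. In KO at day 1 the highest library stood apart for Top2a (0.841), Sln (0.955), Cd3e (0.922), Cd4 (1), Ncr1 (0.844), Mymx (1), Ctsk (0.844), Rgs5 (0.847), Sox10 (0.838), Per1 (0.906), Ppargc1a (0.883), Igfbp2 (1), Osmr (0.878) and Hspd1 (0.918), and the lowest for Col1a1 (0.861). In WT at day 1 the highest stood apart for Ckm (0.862), Ccl2 (0.896) and Klf15 (0.889). The ratios of 1 in Cd4, Mymx and Igfbp2 each rest on 1 count in 1 library. Chance alone passes about 1 in 20 groups, and these are 18 of 251 groups looked at.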

How the results depend on the processing

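The KO count of 6907 genes stayed within 1.5 times under every alternative run except a test against a log2 change of 1 (glmTreat), which called 1911 (851 higher, 1060 lower) in KO, 613 in WT and 57 in the interaction (6 higher, 51 lower). With 1 library left out, the KO count ran from 6194 to 6714, the WT count from 2941 to 3776 and the interaction count from 413 to 1189. The replicate block gave 6331 in KO, 3730 in WT and 911 in the interaction. The replicate numbers pair no samples by the labels, and deviations of same-numbered libraries correlated at 0.18, -0.0383 and -0.0435 over genes between days 1 and 3 in KO, so the block stands only as an alternative. With RLE scaling KO had 6929, without the filter on low counts 6640, with counts thinned to the shallowest library 6345, with only the compared groups fitted 5689 and by DESeq2 7169. For the interaction these were 909, 1249, 849, 782 and 1225, and 820 without genes of chromosome 2. Of the KO gene values named, 186 kept their direction and side of the threshold, 33 crossed the threshold and 2 changed sign under some alternative. Neither of the 2 was called: Plac8 gave -0.16 with the replicate block, -0.048 with thinned counts, -0.02 without KO day 1 replicate 2, -0.03 without KO day 1 replicate 4 and -0.52 without KO day 3 replicate 2, and Cd74 -0.16 without KO day 3 replicate 2; without single libraries they ran from -0.52 to 0.31 and from -0.16 to 0.38. The causes were not tested. Genes under about 1 CPM rest on few counts per library, and KO day 3 replicate 1 is the shallowest at 4051973 counts.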

Other observations

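Immediate early genes were mostly lower at day 3 in KO muscle. Of 24 immediate early genes, which cells induce within minutes of a stimulus, 17 fell and none rose, with a median log2 change of -1.23 against 0.004 over all genes. Ier3 measured 83.5, 43.7, 45.2 and 30.6 CPM in the KO libraries of day 1 and 8.29, 2.08 and 3.88 CPM in those of day 3 (log2 -3.53 ± 0.37, adjusted p = 1.02e-07 by edgeR's quasi-likelihood test), and the nuclear receptor Nr4a1 121, 123, 136 and 113 CPM and then 11.7, 19.1 and 16.7 CPM (log2 -2.94 ± 0.27, adjusted p = 1.50e-08). Atf3, a stress-induced transcription factor, fell, with a log2 change of -2.03 ± 0.37. Of 14 heat shock genes, 6 fell, 3 rose and 5 were not called, with a median of -0.14. The share that rose was near the 22.0% of all genes. The 6 held the small heat shock proteins of muscle, Hspb1 (510.2, 593, 962 and 562 CPM to 28.1, 47.6 and 67.2 CPM, log2 -3.77 ± 0.29, adjusted p = 1.21e-09), Hspb7 (-3.53 ± 0.31) and Cryab (-3.00 ± 0.29), with the inducible Hspa1a (-2.99 ± 0.64). The 3 that rose, named after their values were seen, were Hsp90aa1 (0.88), Hspe1 (0.70) and Hspd1 (0.58). In the 3 genes given by library the 2 days did not overlap.

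Of 15 circadian clock genes, 12 were lower at day 3 and none was higher. Nr1d1, a repressor of the clock, measured 134, 159, 135 and 149 CPM at day 1 and 16.4, 32.7 and 29.5 CPM at day 3 (log2 -2.44 ± 0.21, adjusted p = 2.16e-09), and Per1 fell, with a log2 change of -1.61 ± 0.31. The labels used here give no time of day of collection, and its part in these values was not tested. Of 12 muscle atrophy genes, 7 fell and 2 rose, against 22.6% and 22.0% of all genes. Klf15, a glucocorticoid-induced factor, went from 2.24, 6.47, 11.9 and 14.3 CPM to 0.691, 1.16 and 1.46 CPM (log2 -2.90 ± 0.49, adjusted p = 3.87e-05), Trim63, the ubiquitin ligase MuRF1, changed by -2.79 ± 0.27, and Fbxo32, the ligase atrogin-1, by -2.29 ± 0.30. The 2 that rose were Ncam1 and, named after its value was seen, Runx1 (0.51), which was not called without KO day 1 replicate 4 (0.36) or KO day 3 replicate 1 (0.49) or 3 (0.50). Nor was Runx1 called with the replicate block (0.46). In WT muscle Klf15 measured 3.42, 3.43, 4.59 and 3.55 CPM and then 4.10, 3.08 and 8.51 CPM.

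Of 25 genes of ER stress and ATF4, 11 fell and 5 rose, the latter a share near the 22.0% of all genes that rose. Phgdh, which opens serine synthesis, rose from 12.9, 8.77, 8.41 and 7.89 CPM to 76.9, 57.0 and 85.8 CPM (log2 2.94 ± 0.24, adjusted p = 1.02e-09). The others, named after their values were seen, were Asns (0.65), Psat1 (0.65), Shmt2 (0.49) and Pdia4 (0.47). The count of 5 was 3 without KO day 1 replicate 3, 2 without KO day 1 replicate 4 and 1 without KO day 3 replicate 1. With the replicate block it was 2. Of 12 genes of the interleukin 6 family, 4 fell and none rose, against 22.6% and 22.0% of all genes. Socs3, the family's feedback inhibitor, had a log2 change of -1.91 ± 0.36 and Osmr, the oncostatin M receptor, one of -0.69 ± 0.22. Osmr was not called without KO day 1 replicate 1 (-0.55). The other 2 were Il6st, the shared receptor chain gp130 (-0.69), and Ctf1, cardiotrophin 1, named after its value was seen, which measured 0.28, 0.719, 0.3 and 1.32 CPM at day 1 and had no count in the 3 libraries of day 3. Of 15 prostaglandin genes, 6 rose and 1 fell, against 22.0% and 22.6% of all genes. The 1 that fell was Ptgs2, the inducible cyclooxygenase (-2.28, named after its value was seen). Hpgds, a prostaglandin D synthase of blood cells, went from 5.74, 5.18, 1.35 and 4.77 CPM to 57.2, 85.5 and 58.4 CPM (log2 3.97 ± 0.38, adjusted p = 3.64e-08). Among 8 mechanosensitive channels tested, Trpv2 rose (1.00 ± 0.17) and Tmem63b (-1.33 ± 0.17) and Piezo1 fell, against 22.0% and 22.6% of all genes. The number that rose was 2 without KO day 1 replicate 1 or 3 or KO day 3 replicate 2, and the number that fell was 1 without KO day 1 replicate 1, 2 or 4 or KO day 3 replicate 2. With thinned counts and by DESeq2, 2 rose. Without the filter on low counts, with the replicate block and with only the compared groups fitted, 1 fell.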
